A study of Mus musculus with 10 samples.

Results

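Inhibitory receptors of myeloid cells were described in mouse bone marrow-derived dendritic cells. The 10 receptors were taken as a named list, by a rule that sets no threshold on their values, from the 41813 genes of the RNA-seq tables: Siglece, Siglecg, Sirpa, Pirb, Lilrb4a, Lair1, Cd300a, Cd300lf, Clec4a2 and Havcr2. The series had 10 samples, of which 6 were RNA-seq libraries (3 titled activated, 3 titled non-activated); the 4 ATAC-seq samples were not analysed here. Per the series design, dendritic cells recorded as CD11c+ and MHCIIhigh were incubated with LPS, the bacterial lipopolysaccharide sensed by TLR4. Activated cells had been pulsed with the ovalbumin peptide OVA323-339 and non-activated cells had not, and both were then kept for 24 h with CD4+ OT-II T cells, which carry a transgenic receptor for that peptide on MHC class II. By that design text, the comparison asks how dendritic cells that had met T cells with the peptide differed from those that had met them without it. The sample labels differ from the design text: they give LPS for the activated cells and no stimulation for the others. Which description applies cannot be told from the labels, so the groups are called activated and non-activated, as titled. No strain, age or genotype of the dendritic cells was given, and nothing in the labels says that replicates came from separate animals or cultures, so p-values stand for the spread of these libraries, which may be technical.

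Inhibitory immunoreceptors set a threshold for myeloid cell activation. Most of them carry a tyrosine-based motif (ITIM) in their cytoplasmic tail that, once phosphorylated by a Src-family kinase, recruits the tyrosine phosphatases SHP-1 and SHP-2 or the lipid phosphatase SHIP-1. These enzymes act against signals from activating receptors, which work through adaptors such as DAP12 and the Fc receptor gamma chain and through the kinase Syk. Their ligands are often marks of healthy or dying self cells, such as sialic acids, CD47, MHC class I, collagen and exposed phospholipids.

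Promoter sequences are shown for the 5 receptors with a RefSeq promoter that differed between the groups, of which Siglece and Siglecg lie in one gene cluster and Cd300a and Cd300lf in another. Each runs 5′ to 3′ in the direction of the gene, from 250 bases before the annotated start to 50 bases after it, on RefSeq's GRCm38.p6. The windows are chr7:43660112-43660411 (minus strand) for Siglece, chr7:43407989-43408288 (plus strand, the first of the listed starts) for Siglecg, chr11:114889791-114890090 (plus strand) for Cd300a, chr11:115133943-115134242 (minus strand) for Cd300lf and chr6:123122440-123122739 (plus strand) for Clec4a2. Capitals mark matches, on either strand, to GAGGAA (the core of sites of the myeloid factor PU.1), TTCNNNGAA (the STAT-type GAS), TGANTCA (AP-1) and the NF-kappaB consensus.
Siglece: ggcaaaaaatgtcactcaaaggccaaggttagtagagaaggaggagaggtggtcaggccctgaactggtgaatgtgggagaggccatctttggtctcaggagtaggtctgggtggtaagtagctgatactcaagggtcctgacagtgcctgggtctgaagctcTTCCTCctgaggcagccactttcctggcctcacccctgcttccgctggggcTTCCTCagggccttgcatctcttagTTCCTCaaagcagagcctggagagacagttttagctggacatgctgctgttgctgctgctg
Siglecg: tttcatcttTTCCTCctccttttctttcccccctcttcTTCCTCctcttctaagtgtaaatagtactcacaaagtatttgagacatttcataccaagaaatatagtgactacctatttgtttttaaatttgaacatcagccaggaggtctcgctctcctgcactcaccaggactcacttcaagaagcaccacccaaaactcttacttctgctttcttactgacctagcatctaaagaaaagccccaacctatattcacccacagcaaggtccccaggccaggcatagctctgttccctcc
Cd300a: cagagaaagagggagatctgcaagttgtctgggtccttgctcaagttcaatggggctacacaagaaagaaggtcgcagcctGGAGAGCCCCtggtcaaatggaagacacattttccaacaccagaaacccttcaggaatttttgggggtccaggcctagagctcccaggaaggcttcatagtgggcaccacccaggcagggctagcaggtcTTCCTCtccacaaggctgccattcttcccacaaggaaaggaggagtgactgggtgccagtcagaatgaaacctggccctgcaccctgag
Cd300lf: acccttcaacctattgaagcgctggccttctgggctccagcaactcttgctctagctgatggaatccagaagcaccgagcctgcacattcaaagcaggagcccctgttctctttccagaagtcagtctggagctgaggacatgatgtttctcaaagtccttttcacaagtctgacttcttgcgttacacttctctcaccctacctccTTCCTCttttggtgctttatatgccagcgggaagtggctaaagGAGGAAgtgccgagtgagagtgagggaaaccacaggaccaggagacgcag
Clec4a2: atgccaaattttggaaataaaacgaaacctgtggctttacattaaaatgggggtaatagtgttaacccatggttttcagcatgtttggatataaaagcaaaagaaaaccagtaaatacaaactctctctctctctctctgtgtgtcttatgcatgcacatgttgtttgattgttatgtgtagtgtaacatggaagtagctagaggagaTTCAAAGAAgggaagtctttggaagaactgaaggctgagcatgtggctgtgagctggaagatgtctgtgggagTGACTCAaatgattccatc
A promoter was listed for 8 of the 10 receptors. GAGGAA was found in 7 of these 8 (Siglece, Siglecg, Pirb, Lair1, Cd300a, Cd300lf and Havcr2), against 28.3% of the 32851 RefSeq promoters of the same length. Counted per listed promoter, as that share is, it was 7 of 9, since Siglecg has a second listed promoter, which holds no match. It occurred 3 times in the Siglece window and 2 times in the Cd300lf window. Clec4a2 was the exception, and had 1 TTCNNNGAA match and 1 TGANTCA match, motifs found in 8.3% and 7.81% of all promoters. TGANTCA was also present in the Havcr2 window, the NF-kappaB consensus (4.51% of all promoters) was present in the Cd300a window, and the interferon-response repeat (GAAA, any 2 bases, GAAA, in 3.44% of all promoters) in none of the 8. The motifs can share letters, and a match is a description of the letters only. GAGGAA matches occurred in promoters of receptors that were higher, lower and not different.

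The libraries held between 21338012 and 27404937 summed expected counts, and the 10 receptors took from 0.182% to 0.212% of the activated and from 0.183% to 0.205% of the non-activated ones. Dendritic cell genes were plentiful in every library: Cd74 stood at 5401 to 7834 CPM in activated, against 7301 to 8522 CPM in non-activated libraries (CPM, counts scaled to a common library size with TMM factors), and H2-Ab1 at 2191 to 3118 and 2694 to 3296 CPM. Adgre1, a macrophage gene, was also high, at 522 to 799.6 CPM in activated, against 488 to 689 CPM in non-activated libraries. Defining genes of natural killer cells (Ncr1), neutrophils (Ly6g) and mast cells (Cpa3) stayed at or below 0.392 CPM in all 6 libraries. Others of the same lists were higher: Klrd1 (natural killer cells) reached 1.26 CPM and Cxcr2 (neutrophils) 1.02 CPM. Kit and Gata2, of the mast cell and basophil list, reached 71.5 and 19.8 CPM. The library numbered 1 in each group stood apart from the rest. Trac, the T cell receptor alpha constant region, stood at 7420 CPM in activated replicate 1 and 7444 CPM in non-activated replicate 1, against at most 27.8 CPM in the other 4 libraries. Trbc2 stood at 107 and 106 CPM in the same 2 libraries, against at most 1.88 CPM, and the chitinase-like gene Chil1 at 348 and 295 CPM, against at most 0.735 CPM. The T cell receptor variable segments Trav14d-1 and Trbv12-2 followed the same pattern. Trav14d-1 stood at 2691 and 2732 CPM, against at most 8.90 CPM, and Trbv12-2 at 31.3 and 33.5 CPM, against at most 0.531 CPM. Cd3e, an obligate chain of the T cell receptor complex, did not follow them and lay between 0.152 and 1.90 CPM in all 6 libraries. The highest Cd3e value and an Il2 value of 8.62 CPM (at most 0.522 CPM elsewhere) were those of activated replicate 1. The source of these transcripts was not tested, and results from replicates 2 and 3 alone are therefore given beside those that they changed.

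Of the 10 receptors, all of which passed the filter on low counts, 2 were higher in activated cells (Siglece and Sirpa), 4 were lower (Cd300lf, Clec4a2, Siglecg and Cd300a) and 4 did not pass the test (Pirb, Lilrb4a, Lair1 and Havcr2). The test was edgeR's quasi-likelihood test with Benjamini-Hochberg adjustment over 13946 genes and a threshold of 0.05. By the same rule 27.6% of all genes tested were called, 15.9% as higher and 11.7% as lower, against 60% of the receptors. The log2 fold change was negative for 8 of the 10, with a median of -0.56, against 0.01 over all genes tested. The receptors were chosen with earlier results of these data known, so what that choice added to these contrasts cannot be told. CPM ranges of the groups did not overlap for the 6 receptors that were called, as for 44.7% of all genes tested (24% with activated cells higher and 20.7% with them lower), and overlapped for the other 4. From replicates 2 and 3 alone the counts were again 2 higher and 4 lower, with 23.3% of all genes called, but Clec4a2 no longer passed and Havcr2 did. With the replicate number as a block 2 were higher and 6 lower, Lair1 and Havcr2 among them, with 37.2% of all genes called. With limma on log2(deposited TPM + 1), a scale that also divides by effective length, 1 receptor passed as higher (Sirpa) and 2 as lower (Cd300lf and Clec4a2), with 19.2% of all genes called, 11.1% as higher and 8.12% as lower. In bulk RNA, fewer cells of a type and less RNA per cell cannot be told apart.

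**Figure D1:**
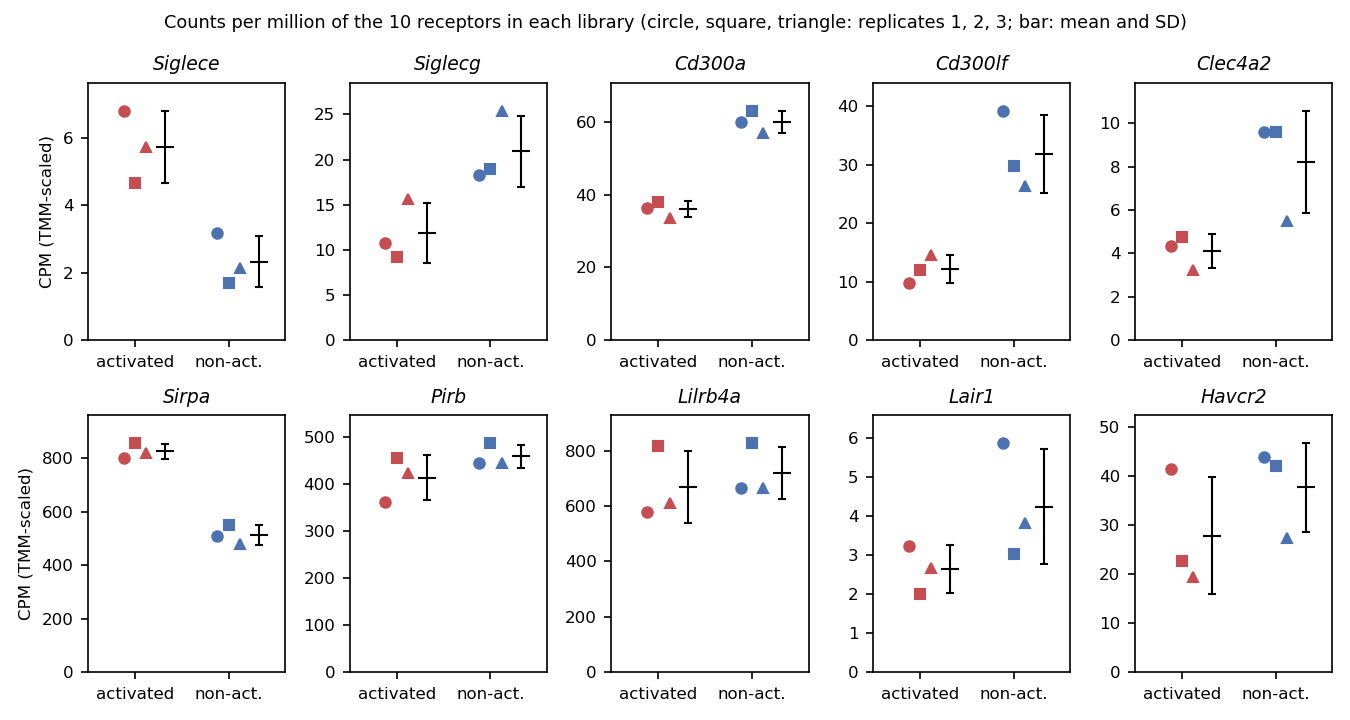
CPM (TMM-scaled counts, linear axes from 0) of each receptor in the 3 activated (red, left) and 3 non-activated (blue, right) libraries; symbols mark the replicate number and black bars the mean and SD. The groups are separate for Siglece, Siglecg, Cd300a, Cd300lf, Clec4a2 and Sirpa, and overlap for Pirb, Lilrb4a, Lair1 and Havcr2.

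Siglece and Siglecg, receptors for sialic acid, changed in opposite directions. Siglece (ENSMUSG00000030474, chr7:43648882-43672044 on GRCm38.p6) encodes Siglec-E, an ITIM receptor of mouse neutrophils, macrophages and dendritic cells. It stood at 6.80, 4.66 and 5.72 CPM in activated replicates 1 to 3, against 3.16, 1.68 and 2.15 CPM in non-activated ones. Every activated library was above every non-activated one, although the gene was among the least abundant of the receptors. Siglece was 2.45-fold higher (log2 fold change 1.29, SE 0.27, adjusted p = 0.00917, edgeR), from 418 counts in the activated and 176 in the non-activated libraries together. Siglecg (ENSMUSG00000030468, chr7:43408192-43418349) encodes Siglec-G, known for restraining B-1 cells and for binding CD24. Its values were 10.8, 9.26 and 15.6 CPM in activated, against 18.3, 19.0 and 25.4 CPM in non-activated libraries. The groups were separate, and replicate 3 was the highest in each. Siglecg fell to 0.570 times the non-activated level (log2 fold change -0.81, SE 0.21, adjusted p = 0.0211, edgeR). That call was lost without activated replicate 2 (adjusted p = 0.0504, edgeR) and without non-activated replicate 3 (adjusted p = 0.0821, edgeR). The 2 genes lie 230.5 kb apart on chromosome 7.

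Sirpa, which also rose, encodes the SIRP-alpha receptor for CD47, through which phagocytes spare CD47-bearing cells (ENSMUSG00000037902, chr2:129591042-129632228). It stood at 800.2, 857 and 817 CPM in activated, against 508, 550.2 and 479 CPM in non-activated libraries. The lowest activated library lay well above the highest non-activated one. Sirpa was 1.61-fold higher (log2 fold change 0.69, SE 0.09, adjusted p = 0.00114, edgeR), and passed in every alternative tried, with a log2 fold change from 0.64 to 0.74. Its expected counts were whole numbers in all 6 libraries, as were those of Siglece, whereas those of Lair1 were fractional in 4 libraries and those of the other 7 receptors in all 6. With the Sirpb1 relatives added to it, which made up little of the sum, the log2 fold change was 0.67 (adjusted p = 0.00125, edgeR). Cd47, the ligand, averaged 322 ± 25.1 CPM in activated, against 317 ± 18.4 CPM in non-activated cells (SD, n = 3 each) and did not pass (log2 fold change 0.02, adjusted p = 0.884, edgeR). Qpctl, the enzyme that modifies CD47 for binding by SIRP-alpha, was 1.27-fold higher (21.3 ± 2.07 CPM in activated, against 16.8 ± 0.508 CPM in non-activated cells, SD, n = 3 each, adjusted p = 0.0376, edgeR), a call kept only without activated replicate 3 when 1 library was left out.

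Cd300a and Cd300lf, receptors for phospholipids and related lipids such as phosphatidylserine, both fell. Cd300a (ENSMUSG00000034652, chr11:114889152-114901946) had 36.3, 37.99 and 33.7 CPM in activated, against 60.0, 63.1 and 57.0 CPM in non-activated libraries. In CPM, replicates lay close together within each group and the groups were far apart. Its level was 0.60 times that of non-activated cells (log2 fold change -0.74, SE 0.08, adjusted p = 0.000402, edgeR). In deposited TPM the groups overlapped, at 14.8 to 23.3 in activated, against 22.9 to 26.8 in non-activated libraries. On that scale Cd300a did not pass (adjusted p = 0.0889, limma on log2(TPM + 1)). Cd300lf (ENSMUSG00000047798, chr11:115116214-115135372), also the entry receptor of murine norovirus, had 9.77, 12.1 and 14.6 CPM in activated, against 39.2, 29.8 and 26.4 CPM in non-activated libraries. Its groups were separate too, and non-activated replicate 1 was the highest library. Cd300lf showed the lowest log2 fold change of the 10, -1.39 (SE 0.19, adjusted p = 0.00105, edgeR), at 0.382 times the non-activated level, and passed in every alternative tried. From replicates 2 and 3 alone its log2 fold change was -1.09 (adjusted p = 0.00137, edgeR). The 2 genes lie 214.3 kb apart on chromosome 11. Cd300lb, an activating receptor of the same cluster that signals through DAP12, averaged 6.31 ± 1.19 CPM in activated, against 14.5 ± 2.21 CPM in non-activated cells (SD, n = 3 each). It fell to 0.435 times the non-activated level (adjusted p = 0.00186, edgeR). Cd300c2 and Cd300ld did not pass, with log2 fold changes of -0.35 and -0.28 (adjusted p = 0.420 and 0.639, edgeR), and Cd300ld2 and Cd300ld4 had no counts in any library.

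Clec4a2 encodes DCIR1, a C-type lectin receptor with an ITIM that is prominent on dendritic cells (ENSMUSG00000030148, chr6:123122690-123143999). It stood at 4.34, 4.74 and 3.23 CPM in activated, against 9.59, 9.60 and 5.51 CPM in non-activated libraries. The groups did not overlap, but non-activated replicate 3 lay much nearer to the activated libraries than the other two. Clec4a2 was at 0.499 times the non-activated level (log2 fold change -1.003, SE 0.26, adjusted p = 0.0213, edgeR). The call depended on single libraries, with an adjusted p (edgeR) of 0.0649 without activated replicate 3, 0.0709 without non-activated replicate 1 and 0.0757 without non-activated replicate 2. From replicates 2 and 3 alone it was 0.0758. Its expected counts were fractional in every library, as were those of its relative Clec4a4, whereas those of Clec4a1 and Clec4a3 in the same cluster were whole. Summed with Clec4a1, Clec4a3 and Clec4a4 the log2 fold change was -0.28 (adjusted p = 0.561, edgeR), and Clec4a2 made up 17.97% of that sum in activated and 30.4% in non-activated cells. Clec4a4, the relative with fractional counts, had only 38 counts in activated and 36 in non-activated libraries. As most of the sum was other genes, it cannot show how reads were divided and is no second estimate for Clec4a2. Clec4a1 was highest in the library numbered 1 of each group, at 18.6 CPM in activated, against 14.9 CPM in non-activated cells, against at most 7.50 CPM in the other libraries.

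Pirb and Lilrb4a, abundant receptors of the leukocyte immunoglobulin-like family, did not pass the test. Pirb (ENSMUSG00000058818, chr7:3712505-3720382), which binds MHC class I, had 361, 455 and 423 CPM in activated, against 445, 487 and 444 CPM in non-activated libraries. The ranges overlapped. Its log2 fold change was -0.15 (SE 0.11, adjusted p = 0.326, edgeR), with a 95% interval from -0.40 to 0.09. Summed with its activating relative Pira2, whose expected counts were fractional in every library too, the log2 fold change was -0.11 (adjusted p = 0.608, edgeR). Lilrb4a (ENSMUSG00000112148, chr10:51490898-51496613), known as gp49B, had 579, 818 and 611 CPM in activated, against 666, 828 and 665 CPM in non-activated libraries. Replicate 2 was the highest in each group, and the ranges largely overlapped. Its log2 fold change was -0.10 (SE 0.15, adjusted p = 0.661, edgeR), with a 95% interval from -0.46 to 0.25. The sign turned when it was summed with its neighbour Lilr4b, 4.57 kb away, to 0.14 (adjusted p = 0.548, edgeR), and without non-activated replicate 2 it was 0.0052. Lilr4b itself averaged 1007 ± 183 CPM in activated, against 801 ± 107 CPM in non-activated cells (SD, n = 3 each, log2 fold change 0.33, adjusted p = 0.147, edgeR). How reads were divided between these neighbours is uncertain, and whether further genes, such as the unplaced Gm49339, share reads with them was not tested.

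Lair1 and Havcr2 did not pass either, and their intervals were the widest of the 4. Lair1 (ENSMUSG00000055541, chr7:4007073-4073567), a receptor for collagens and C1q, had 3.24, 2.01 and 2.66 CPM in activated, against 5.87, 3.03 and 3.81 CPM in non-activated libraries. Activated replicate 1 lay above non-activated replicate 2, and replicate 1 was the highest of each group. The log2 fold change was -0.68 (SE 0.30, adjusted p = 0.132, edgeR), with a 95% interval from -1.37 to 0.01, so 0.386 times the non-activated level and no change both lay inside it. With the replicate number as a block, which called 37.2% of all genes tested and 8 of the 10 receptors, Lair1 passed (log2 fold change -0.66, adjusted p = 0.0375, edgeR). Havcr2 (ENSMUSG00000020399, chr11:46454931-46481255) encodes TIM-3, which has no ITIM, and whose proposed ligands include galectin-9, HMGB1, CEACAM1 and phosphatidylserine. It had 41.4, 22.8 and 19.4 CPM in activated, against 43.8, 42.0 and 27.3 CPM in non-activated libraries. Activated replicate 1 lay among the non-activated values, while the other two activated libraries were below all of them. The log2 fold change was -0.43 (SE 0.29, adjusted p = 0.302, edgeR), with a 95% interval from -1.09 to 0.22. Havcr2 passed with the replicate block (-0.48, adjusted p = 0.0275, edgeR), without activated replicate 1 (-0.86, adjusted p = 0.0162, edgeR) and from replicates 2 and 3 alone (-0.74, adjusted p = 0.0311, edgeR). Activated replicate 1 is also the library with the most Cd3e and Il2 RNA; whether T cell RNA had a part in its Havcr2 value was not tested.

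**Figure D2:**
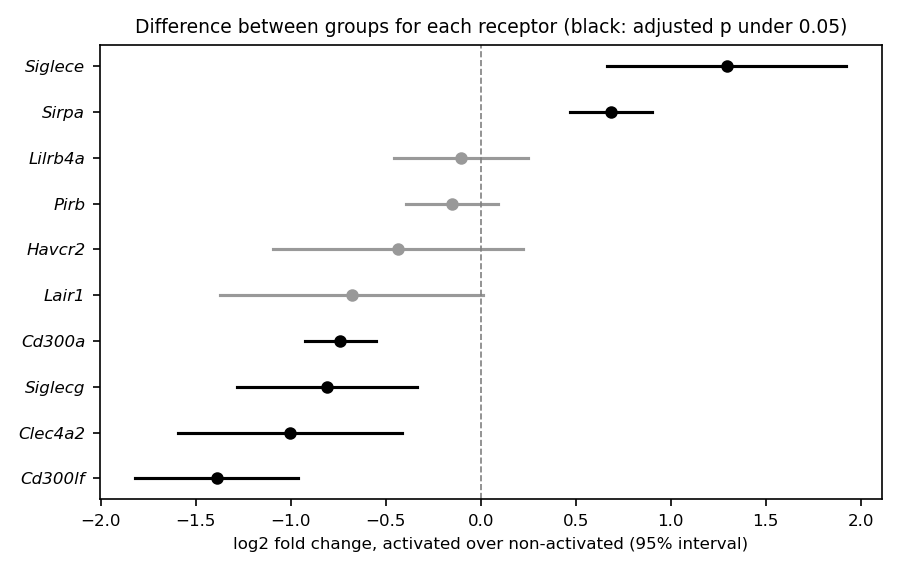
Log2 fold change of each receptor, activated over non-activated, with its 95% interval from edgeR's quasi-likelihood fit; black marks an adjusted p under 0.05 and grey the rest. Siglece and Sirpa lie right of 0, and Cd300a, Siglecg, Clec4a2 and Cd300lf left of it, while the intervals of Lilrb4a, Pirb, Havcr2 and Lair1 include 0.

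Per length, as deposited TPM (transcript abundance scaled by effective length), 3 receptors made up most of the receptor RNA. In activated cells Lilrb4a averaged 579 ± 107 TPM, Sirpa 398 ± 12.2 TPM and Pirb 226 ± 29.9 TPM (SD, n = 3). The order in non-activated cells was Lilrb4a (630.3 ± 76.4 TPM), then Pirb (253 ± 16.2 TPM) and Sirpa (252 ± 15.2 TPM, SD, n = 3), where Pirb and Sirpa did not differ beyond their spread. Sirpa thus stood above Pirb in all 3 activated libraries and level with it in non-activated ones. The remaining 7 receptors were at much lower levels. In activated cells they ran from Cd300a at 18.0 ± 4.60 TPM over Havcr2 (15.99 ± 6.41), Cd300lf (10.6 ± 3.03), Clec4a2 (6.32 ± 0.598), Siglecg (6.03 ± 2.06) and Siglece (5.10 ± 0.785) to Lair1 at 2.49 ± 0.927 TPM. In non-activated cells Cd300lf led them at 28.0 ± 5.26 TPM, followed by Cd300a (25.4 ± 2.19), Havcr2 (22.0 ± 4.40), Clec4a2 (14.7 ± 4.99), Siglecg (10.6 ± 2.17), Lair1 (3.74 ± 1.24) and Siglece (2.59 ± 0.999). Ranges of neighbours in these orders overlapped for Cd300a and Havcr2, Havcr2 and Cd300lf, Clec4a2 and Siglecg, and Siglecg and Siglece in activated cells. In non-activated cells they overlapped for Cd300lf and Cd300a, Cd300a and Havcr2, Havcr2 and Clec4a2, Clec4a2 and Siglecg, and Lair1 and Siglece.

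**Figure D3:**
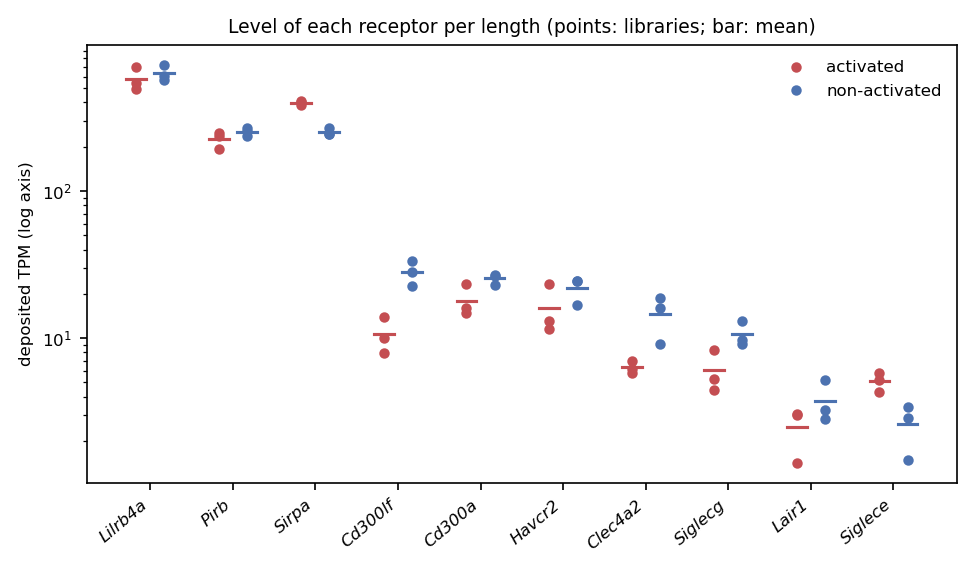
Deposited TPM of each receptor on a log axis, with points for the 3 activated (red, left) and 3 non-activated (blue, right) libraries and bars for their means, ordered by the non-activated mean. Lilrb4a, Pirb and Sirpa lie at 192 TPM or more in every library, and the other 7 at 33.2 TPM or less.

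The profile over the 6 libraries was compared with that of 8610 other genes averaging at least 10 CPM, by the root mean square difference of mean-centred log2 CPM. Sirpa was closest to Il1rl2, the interleukin-36 receptor chain (0.0207), and to Acly, ATP citrate lyase (0.0314). Cd300lf was closest to Cd200r1, another inhibitory receptor of myeloid cells (0.181), and to Fbxo31 (0.196), a much looser likeness than that of Sirpa. Cd300a was closest to the mitochondrial thiolase Acaa2 (0.0443) and to Osbpl9 (0.0515). Clec4a2 was closest to the metalloproteinase Mmp19 (0.174) and to Rhov (0.176), Siglece to the mitochondrial folate enzyme Mthfd1l (0.0788) and to Polm (0.153), and Siglecg to the adhesion molecule L1cam (0.0847) and to Strip2 (0.0990). These neighbours were chosen by the same 6 libraries, so their own group differences carry no further information.

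Other inhibitory receptors of myeloid cells moved in both directions. Of 17 tested, 3 rose, 5 fell and 9 did not pass, with a median log2 fold change of -0.46; the replicate block gave 3 higher and 7 lower. Btla, a receptor for the TNF-receptor family member HVEM, was 8.33-fold higher (82.2 ± 8.19 CPM in activated, against 9.88 ± 2.28 CPM in non-activated cells, SD, n = 3 each, adjusted p = 1.53e-05, edgeR). Pilra, an ITIM receptor for sialylated proteins, was 2.03-fold higher (adjusted p = 0.00101, edgeR), and Vsir, encoding VISTA, 1.41-fold higher (adjusted p = 0.00287, edgeR). Ceacam1, an ITIM adhesion receptor, fell to 0.255 times the non-activated level, with 5.15 ± 1.54 CPM in activated, against 20.2 ± 1.59 CPM in non-activated cells (SD, n = 3 each, adjusted p = 0.000332, edgeR). Cd200r1 fell to 0.442 times (17.8 ± 3.77 CPM in activated, against 40.3 ± 3.92 CPM in non-activated cells, SD, n = 3 each, adjusted p = 0.00109, edgeR) and Milr1 to 0.723 times the non-activated level (adjusted p = 0.0337, edgeR). Klra17 and Pdcd1, the remaining pair that fell, were barely expressed, at no more than 1.26 and 3.27 CPM in any library. When 1 library was left out at a time, 2 to 5 of the list fell: Ceacam1 and Cd200r1 kept their calls in all 6 fits, as did the 3 genes that rose, whereas Milr1 and Klra17 kept theirs only without activated replicate 2 and Pdcd1 only without activated replicate 1. Cd33, at 65.1 ± 9.08 CPM in activated, against 64.95 ± 10.4 CPM in non-activated cells (SD, n = 3 each), did not pass (log2 fold change 0.00, adjusted p = 0.994, edgeR).

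The activating counterparts mostly did not pass: of 24 tested, 1 rose, 4 fell and 19 did not pass, with a median log2 fold change of -0.24 (from replicates 2 and 3 alone, 3 rose and 3 fell, and with the replicate block 1 rose and 7 fell). Clec4e, encoding the glycolipid receptor Mincle, was 1.97-fold higher (1080 ± 229 CPM in activated, against 548 ± 71.4 CPM in non-activated cells, SD, n = 3 each, adjusted p = 0.00329, edgeR). Besides Cd300lb, the Fc receptor genes Fcgr3 and Fcgr1 fell to 0.707 and 0.706 times the non-activated level (adjusted p = 0.00729 and 0.0454, edgeR). Sirpb1a also fell, but its expected counts were fractional in every library and it reached only 1.29 CPM. Clec4e, Cd300lb and Fcgr3 kept their calls in all 6 fits without 1 library. Fcgr1 did not pass when replicate 1 or 3 of the activated or replicate 1 or 2 of the non-activated libraries was omitted, and Sirpb1a kept its call only without activated replicate 2. The list's count of genes that fell was 2 to 6 in these fits, the most without activated replicate 2, and 3 rose without activated replicate 1. Among 12 adaptors and kinases of the activating pathway, 3 rose, 3 fell and 6 did not pass (median -0.09); from replicates 2 and 3 alone 3 rose and 2 fell, and with the replicate block 4 rose and 4 fell. Plcg2, a phospholipase downstream of Syk, was 2.31-fold higher (adjusted p = 6.85e-05, edgeR), the adaptor Lcp2 1.75-fold (adjusted p = 0.000324, edgeR) and the paracaspase gene Malt1 1.32-fold (adjusted p = 0.0311, edgeR). Tyrobp, encoding DAP12, fell to 0.637 times (adjusted p = 0.0238, edgeR), Card9 to 0.756 times (adjusted p = 0.0326, edgeR) and Syk to 0.776 times the non-activated level (adjusted p = 0.0191, edgeR). None of these 3 falls held in all 6 fits that left out 1 library. Syk and Card9 lost the call without any one of the non-activated libraries, and Tyrobp in the fits that omitted activated replicate 3, non-activated replicate 1 and non-activated replicate 2. Malt1 kept its call in 1 of the 6 fits (without activated replicate 1), whereas Plcg2 and Lcp2 kept theirs in all 6.

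The enzymes that inhibitory receptors recruit did not change in one direction. Of 20 effectors and their regulators, 5 rose, 4 fell and 11 did not pass (median 0.07); with the replicate block 7 rose and 7 fell, and from replicates 2 and 3 alone 4 rose and 5 fell. Ptpn6, encoding SHP-1, had 139, 129 and 126 CPM in activated, against 62.2, 66.7 and 61.1 CPM in non-activated libraries. The groups were far apart and each was tight, and Ptpn6 was 2.08-fold higher (log2 fold change 1.05, SE 0.08, adjusted p = 6.05e-05, edgeR). Ptpn11, encoding SHP-2, was 1.68-fold higher (223 ± 4.62 CPM in activated, against 133 ± 10.1 CPM in non-activated cells, SD, n = 3 each, adjusted p = 0.000338, edgeR). Inpp5d, encoding SHIP-1, fell to 0.701 times the non-activated level (92.1 ± 11.5 CPM in activated, against 131 ± 10.96 CPM in non-activated cells, SD, n = 3 each, adjusted p = 0.00913, edgeR). Of the Src-family kinases, Fgr was 3.96-fold higher at a low level (4.22 ± 1.25 CPM in activated, against 1.06 ± 0.387 CPM in non-activated cells, SD, n = 3 each, adjusted p = 0.00443, edgeR) and Src 1.34-fold higher (adjusted p = 0.0232, edgeR). Fyn fell to 0.360 times (45.2 ± 4.16 CPM in activated, against 126 ± 10.2 CPM in non-activated cells, SD, n = 3 each, adjusted p = 3.94e-05, edgeR), and Lyn did not pass (log2 fold change 0.13, adjusted p = 0.211, edgeR). The ubiquitin ligase gene Cblb fell to 0.462 times and Pag1, which anchors the kinase Csk, to 0.687 times the non-activated level (adjusted p = 0.00309 and 0.00549, edgeR), while the phosphatase gene Ubash3b was 1.49-fold higher (adjusted p = 0.0136, edgeR). The 4 falls, and the rises of Ptpn6, Ptpn11 and Fgr, held in all 6 fits without 1 library. Ubash3b did not pass when activated replicate 3 was omitted, nor when non-activated replicate 2 was, and Src did not when replicate 2 or 3 of either group was.

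Most ligand genes did not pass the test: of 17 tested, 3 rose, 1 fell and 13 did not pass (median 0.06; from replicates 2 and 3 alone, 3 rose and 2 fell; with the replicate block, 4 rose and 3 fell). Cd24a, encoding the Siglec-G ligand CD24, was 1.87-fold higher (127 ± 30.5 CPM in activated, against 67.8 ± 5.48 CPM in non-activated cells, SD, n = 3 each, adjusted p = 0.00468, edgeR), whereas Siglecg fell. Col4a1, a collagen gene, was 7.70-fold higher (13.1 ± 3.85 CPM in activated, against 1.70 ± 0.569 CPM in non-activated cells, SD, n = 3 each, adjusted p = 0.000316, edgeR). Ceacam1, counted in this list too as a proposed ligand of TIM-3, was the gene that fell, and Lgals9 and Hmgb1 did not pass (log2 fold changes 0.19 and -0.21, adjusted p = 0.431 and 0.173, edgeR). Of 17 enzymes that make, attach or remove sialic acid, 5 rose, 3 fell and 9 did not pass (median -0.02). The genes that rose included 4 alpha-2,3-sialyltransferases: St3gal5, which makes the ganglioside GM3, was 3.87-fold higher (58.5 ± 4.69 CPM in activated, against 15.1 ± 3.65 CPM in non-activated cells, SD, n = 3 each, adjusted p = 0.000127, edgeR). St3gal2, St3gal3 and St3gal1 were 2.09-, 1.43- and 1.32-fold higher (adjusted p = 0.000706, 0.0014 and 0.0195, edgeR; St3gal1 did not pass when non-activated replicate 2 or 3 was omitted), and the sialic acid synthase gene Nans 1.73-fold higher (adjusted p = 0.000419, edgeR). St6gal1, which attaches sialic acid in alpha-2,6 linkage, fell to 0.463 times the non-activated level (41.4 ± 12.5 CPM in activated, against 89.5 ± 22.0 CPM in non-activated cells, SD, n = 3 each, adjusted p = 0.00932, edgeR). St6galnac6 fell to 0.674 times and Gne, which opens the synthesis pathway, to 0.729 times (adjusted p = 0.0051 and 0.00663, edgeR). Over the 6 lists, 20 of 106 genes rose and 19 fell, where 15.9% and 11.7% of all genes tested were called as higher and lower. With the replicate block 25 rose and 31 fell, where 20% and 17.2% of all genes were called.

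**Figure D4:**
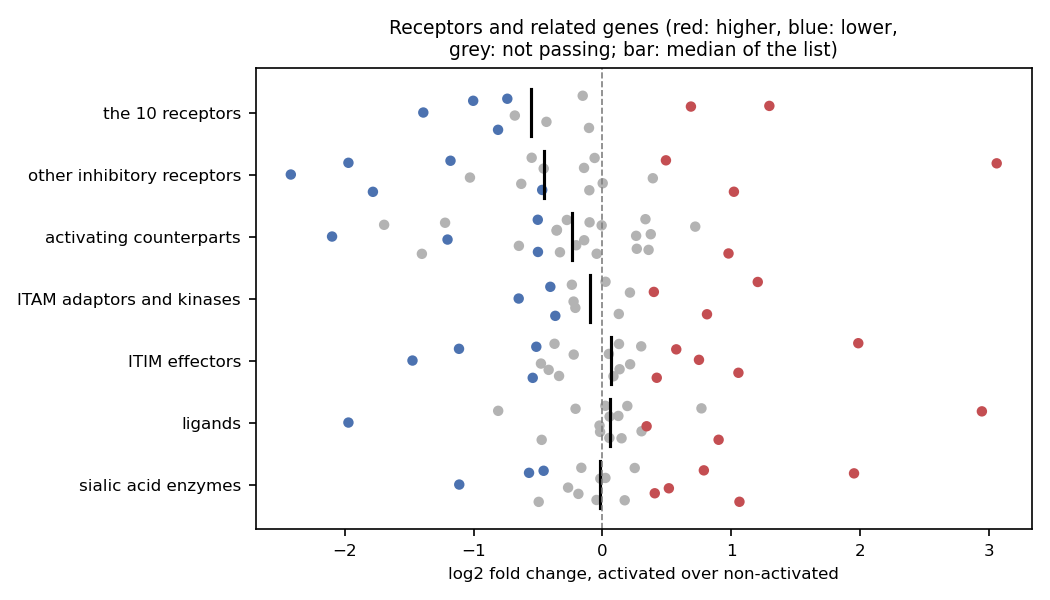
Log2 fold changes, activated over non-activated, of the 10 receptors and of the tested genes in 6 related lists; red points were higher and blue points lower at an adjusted p under 0.05, grey points did not pass, and bars mark each list's median. The receptor median lies at -0.56, that of the other inhibitory receptors at -0.46 and that of the activating counterparts at -0.24. Those of the bottom 4 lists lie between -0.09 and 0.07.

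Marker genes of other cell types were read in the same libraries. Of 7 mast cell and basophil markers 2 could be tested, and both fell: Kit averaged 32.4 ± 9.67 CPM in activated, against 67.1 ± 3.91 CPM in non-activated cells, and Gata2 5.17 ± 1.00 and 17.0 ± 2.88 CPM (SD, n = 3 each, adjusted p = 0.00505 and 0.000363, edgeR). The whole list summed to 26.6 to 45.3 CPM in activated, against 79.5 to 91.6 CPM in non-activated libraries, with Tpsb2 at 0 and Cpa3 at most 0.190 CPM. Of 8 macrophage and monocyte markers, 0 rose, 2 fell (Fcgr1 among them, by edgeR, whose call depended on single libraries) and the sum was 2896 to 4388 CPM in activated, against 3228 to 4234 CPM in non-activated libraries. Csf1r, the receptor for macrophage colony-stimulating factor, lay at 468 to 591 CPM in activated, against 486 to 594 CPM in non-activated libraries. Of 10 dendritic cell markers, 3 rose (Ccr7, Cd86 and Zbtb46) and 7 did not pass. Of 12 T cell markers 6 could be tested, 1 rose (Lck, 4.37 ± 0.692 CPM in activated, against 0.999 ± 0.279 CPM in non-activated cells, SD, n = 3 each) and 1 fell (Il7r, a call lost in 4 of the 6 fits without 1 library). That list summed to 418 to 7973 CPM in activated, against 517 to 8102 CPM in non-activated libraries, and without Trac and Trbc2 to 388 to 456 CPM and 511 to 558 CPM, most of it Il7r. Without Il7r too, the sum was 25.0 to 29.0 CPM in activated, against 20.8 to 45.8 CPM in non-activated libraries, and the ranges overlapped. Cd28 took 9.96 to 22.6 CPM of it in activated, against 17.2 to 42.3 CPM in non-activated libraries. Among untested genes of this list, Cd3d, Cd3e, Cd3g, Trbc1 and Cd4 had 29, 66, 27, 60 and 51 counts in activated libraries. They had 9, 14, 3, 3 and 8 in non-activated ones, and each was highest in activated replicate 1. Cd8a went the other way, with 8 against 16 counts. Of 12 markers of activated helper T cells 5 could be tested, 2 rose (Gata3 and Il2) and 1 fell (Icos). Il2 kept its call in 3 of the 6 fits without 1 library. The list summed to 9.35 to 28.5 CPM in activated, against 14.5 to 19.4 CPM in non-activated libraries, where Icos alone took 10.8 to 16.2 CPM. The untested Ifng, Tbx21, Cd40lg and Ctla4 had 45, 52, 38 and 44 counts in activated, against 2, 2, 0 and 11 in non-activated libraries. Activated replicate 1 held most of these counts, at 1.41, 1.375, 1.30 and 1.52 CPM. No other library exceeded 0.283, 0.4905, 0.08165 and 0.228 CPM for these genes. Foxp3 had 22 against 17 counts. Il4 and Tigit went the other way, with 5 and 4 against 17 and 16 counts. Of the 2 B cell markers tested, 1 rose (Cd79b, at most 2.85 CPM), and the single natural killer cell and neutrophil markers tested did not pass. The part of these other cell types in the values of Cd300a, Cd300lf, Siglecg and Clec4a2 was not tested.

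**Figure D5:**
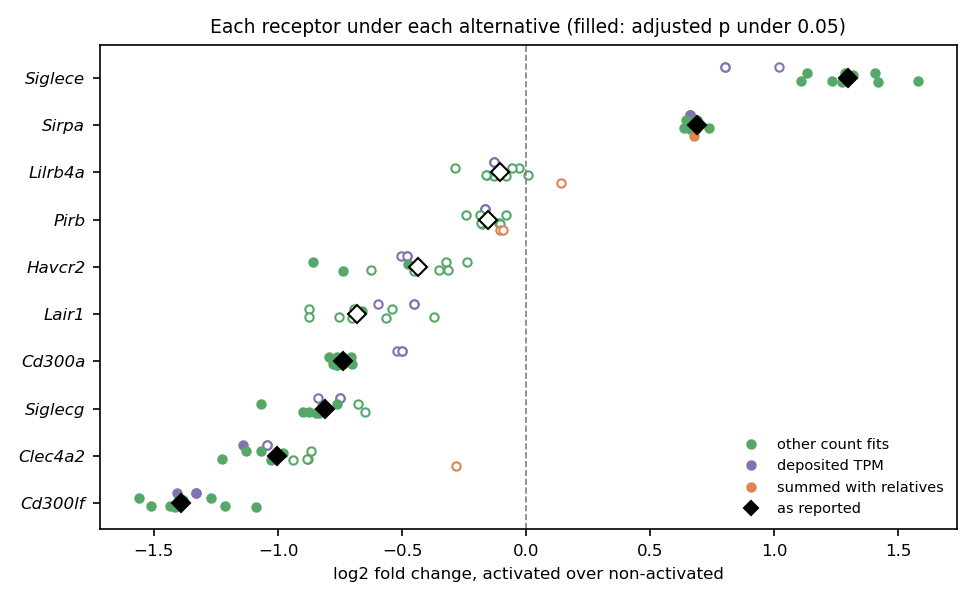
Log2 fold change of each receptor as reported (diamonds) and under every alternative (circles: green, other count fits including those without 1 library; purple, deposited TPM; orange, summed with relatives); filled symbols passed an adjusted p of 0.05. Sirpa and Cd300lf are filled throughout, and Siglece, Cd300a and Siglecg lose the call on TPM. Clec4a2 moves to -0.28 when summed with its relatives, which made up most of that sum.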

How the data were processed

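Total RNA of the 6 libraries (200 ng each, single reads of 60 nt) had been processed by the authors into gene tables in RSEM's layout; per the file headers, they deposited an expected count, a TPM value and an effective length per gene. The submitters' processing notes name the mouse build GRCm38; which aligner served the RNA is not given in the sources. RSEM divides reads that match several genes, so counts of near-identical relatives are uncertain. No strand setting is stated.

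Expected counts were rounded, filtered with filterByExpr (13946 genes kept) and scaled by TMM in edgeR 4.0.16 (R 4.3.3). Group was the single term of glmQLFit and glmQLFTest (two-sided, Benjamini-Hochberg threshold 0.05). The SE is the log2 fold change divided by the root of F. The biological coefficient of variation was 16.9%. Siglece and Lair1 rested on the fewest counts (418 and 193 in activated, against 176 and 320 in non-activated libraries). Scripts were tested on simulated data. Libraries of a group differed by more than sampling noise (chi-square divided by its degrees of freedom, 15.2 to 71.5).

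Deviations from group means correlated at 0.398, 0.313 and 0.187 between libraries with one replicate number, and between -0.315 and 0.0402 otherwise. By that check libraries with one number were more alike across the groups, but no label says that they are pairs. The main fit had no block for the replicate number, since no label states one, so its p-values do not use this likeness. The fit with that block was an alternative, as were DESeq2 1.42.0, RLE factors, no filter, limma 3.58.1 on log2(deposited TPM + 1 or 0.1), leaving out each library, and sums over relatives; replicates 2 and 3 alone, the Lilr4b sum and 1 wider Pirb sum were chosen after seeing the data. Promoter sequences are RefSeq's on GRCm38.p6. Named genes were the 10 receptors, up to 4 per direction with the smallest adjusted p in each list, the 2 nearest profiles of each called receptor, and defining markers. Others were added after their values were seen: Src, Pdcd1, St3gal1, Cd33, Cd47, Lyn, Lgals9, Hmgb1, Cd300c2, Cd300ld, Chil1, Trac, Trbc2, Trav14d-1, Trbv12-2, Csf1r, Klrd1, Cxcr2, further genes of the marker lists and the genes of relatives. Some marker genes are not reported here. The receptors and lists were chosen with earlier results of these data known.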

Additional observations from a re-analysis of the deposited data

How the results depend on the processing

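Sirpa and Cd300lf kept their direction and call in every alternative run. On deposited TPM with limma, 1 receptor passed as higher with a pseudocount of 1, of 0.1 and with no filter, and 2, 2 and 1 passed as lower: Siglece (adjusted p = 0.0543, 0.0651 and 0.157), Siglecg (0.0646, 0.0632 and 0.148) and Cd300a (0.0889, 0.0866 and 0.174) lost their calls. Clec4a2 lost its call with no filter on TPM (0.0721). The effective length that TPM divides by varied between libraries, for Cd300a from 2380 to 3461 bases in activated and 3172 to 3849 in non-activated ones; the cause of the lost calls was not tested. With no filter, TPM gave 1163 genes higher and 719 lower over all genes, and 6 lower in the related lists. Leaving out 1 library at a time gave 2 receptors higher throughout and 3 to 5 lower, 1586 to 1956 genes higher and 1061 to 1673 lower over all genes (1061 lower without non-activated replicate 2), and 15 to 23 higher and 11 to 21 lower in the related lists, with 11 and 12 lower without non-activated replicates 1 and 2. The replicate block gave 2 receptors higher and 6 lower, adding Lair1 and Havcr2, where 37.2% of all genes were called; it gave 31 lower in the related lists, and changed no other call among the receptors. The log2 fold change of Lilrb4a ran from -0.29 to 0.0052 (without non-activated replicate 2) when 1 library was left out. It turned to 0.14 when Lilrb4a was summed with Lilr4b. The log2 fold change of Clec4a2 went to -0.28 when summed with relatives, which made up most of that sum. Depth limits Siglece, Lair1 and Clec4a2 most, with 418, 193 and 292 counts over the activated and 176, 320 and 616 over the non-activated libraries.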
